A study of Mus musculus with 4 samples.

Results

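Polyamines are small positively charged molecules, and 8 genes of their synthesis and control were followed in cultured mouse islet cells: Odc1, Amd1, Srm, Sms, Azin1, Oaz1, Oaz2 and Sat1. They were taken by symbol from the 32285 genes of the count tables, and all 8 were found. The family was chosen by its measured imeglimin to vehicle ratios, with earlier results of these data known, in which Odc1 stood among the genes most above vehicle in imeglimin-treated beta cells at 11.1 mM glucose, so the beta-cell values of Odc1 in that comparison are a description and no evidence for the family. Islets came from wild-type C57BL6J mice, males aged 8 weeks, and were kept in culture for 24 h. The 4 conditions were 1 mM imeglimin at 11.1 mM glucose, DMSO vehicle at 11.1 mM glucose, 1 mM imeglimin at 3.9 mM glucose and DMSO vehicle at 3.9 mM glucose. Imeglimin is an oral diabetes drug that acts on mitochondria and on insulin secretion. Each condition gave 1 droplet single-cell library, so no test between conditions was made, and nothing in the labels says how many mice or cultures went into a library. Differences are therefore given as ratios with 95% counting intervals, which leave out variation between mice, cultures and library preparations.

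Polyamine synthesis starts from ornithine. Ornithine decarboxylase (Odc1) makes putrescine, and spermidine synthase (Srm) and spermine synthase (Sms) then add aminopropyl groups supplied by S-adenosylmethionine decarboxylase (Amd1). Antizymes (Oaz1 and Oaz2) bind ornithine decarboxylase and bring it to the proteasome, antizyme inhibitor 1 (Azin1) takes antizyme away from the enzyme, and spermidine/spermine acetyltransferase (Sat1) starts polyamine breakdown and export. Polyamines bind nucleic acids, support translation through the hypusine residue of eIF5A, and are abundant in insulin granules of beta cells.

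The libraries held between 91245564 and 106092232 unique molecular identifiers (UMIs, each standing for 1 captured RNA molecule), and 7166 to 8755 cells per library were kept. Any pair of libraries shared 15 to 24 cell barcodes, at most 0.307% of either. Cell classes were rebuilt from fixed marker genes and carry the ending "-like". Between 11.8% and 21.7% of the kept cells of a library stayed unnamed and are in no class. Beta-like cells numbered 5414 with imeglimin against 4922 with vehicle at 11.1 mM, and 4438 with imeglimin against 4651 with vehicle at 3.9 mM, and at least 99.9% of them held Ins1 in each library. Their median depth was 12828 UMIs with imeglimin against 13016.5 with vehicle at 11.1 mM, against 10131 with imeglimin against 12144 with vehicle at 3.9 mM. Different clusters held most beta-like cells in each library, so the class name covers cells that differ between conditions in many genes. Malat1, a nuclear RNA, took 2.06% of beta-like UMIs with imeglimin against 1.13% with vehicle at 11.1 mM, and 2.40% with imeglimin against 1.52% with vehicle at 3.9 mM. The summed level of 8 alpha-cell markers in beta-like cells was 1114 CPM (UMIs of a gene scaled to a common total) with imeglimin against 1268 with vehicle at 11.1 mM, and 1709 with imeglimin against 880 CPM with vehicle at 3.9 mM, with no marker at 0. For 7 macrophage markers the sums were 15.9 CPM with imeglimin against 44.3 with vehicle at 11.1 mM, and 19.3 with imeglimin against 54.2 with vehicle at 3.9 mM, with at most 1 marker at 0. For 7 endothelial markers they lay between 5.10 and 6.22 CPM in all 4 libraries. Sums of 5 delta-cell markers were 147 CPM with imeglimin against 133 with vehicle at 11.1 mM, and 246 with imeglimin against 78.0 with vehicle at 3.9 mM. Sums of 5 pp-cell markers were 663 with imeglimin against 1066 with vehicle at 11.1 mM and 1399 with imeglimin against 1371 with vehicle at 3.9 mM, and of 7 acinar markers 4.77 against 11.5 and 8.16 against 24.4 CPM. At most 1 marker of these lists was at 0 in a library. The part of depth, Malat1 and these markers in the results that follow was not tested.

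In beta-like cells, Odc1 and Sat1 were higher with imeglimin than with vehicle at both glucose concentrations, Azin1 was above vehicle at both, and the 3 later steps of synthesis and both antizymes differed less. Levels are given as CPM of the UMIs summed over a class, scaled by the trimmed mean of M-values (TMM), and genes were called apart by size at 1.5-fold, which is no test. At 11.1 mM glucose 2 of the 8 members, Odc1 and Sat1, were at least 1.5-fold higher and 0 were lower, while of 5634 genes with at least 20 CPM 5.63% were higher and 4.31% lower. At 3.9 mM glucose 3 members (Odc1, Azin1 and Sat1) were at least 1.5-fold higher and 0 lower, against 12.2% higher and 10.4% lower of 6007 genes. All 8 members passed the 20 CPM filter in beta-like cells. Their median log2 ratio was 0.30 at 11.1 mM and 0.44 at 3.9 mM, beside 0.11 and 0.10 over all genes compared, and 7 and 5 members lay above that median. Since members were chosen with these results known, the counts describe the family and support nothing.

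The split of all genes depends on the scaling. At 11.1 mM 317 genes were higher and 243 lower with TMM, against 150 and 647 when hormone and mitochondrial genes were left out of the total. At 3.9 mM 731 genes were higher and 626 lower with TMM, against 216 and 1517 with plain CPM and 440 and 1193 without hormone and mitochondrial genes. Plain CPM moved all beta-like log2 ratios of imeglimin over vehicle at 3.9 mM by -0.30, and leaving out hormone and mitochondrial genes moved those at 11.1 mM by -0.19. Member ratios move by the same amounts, so a ratio is best read against the median of its comparison.

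**Figure D1:**
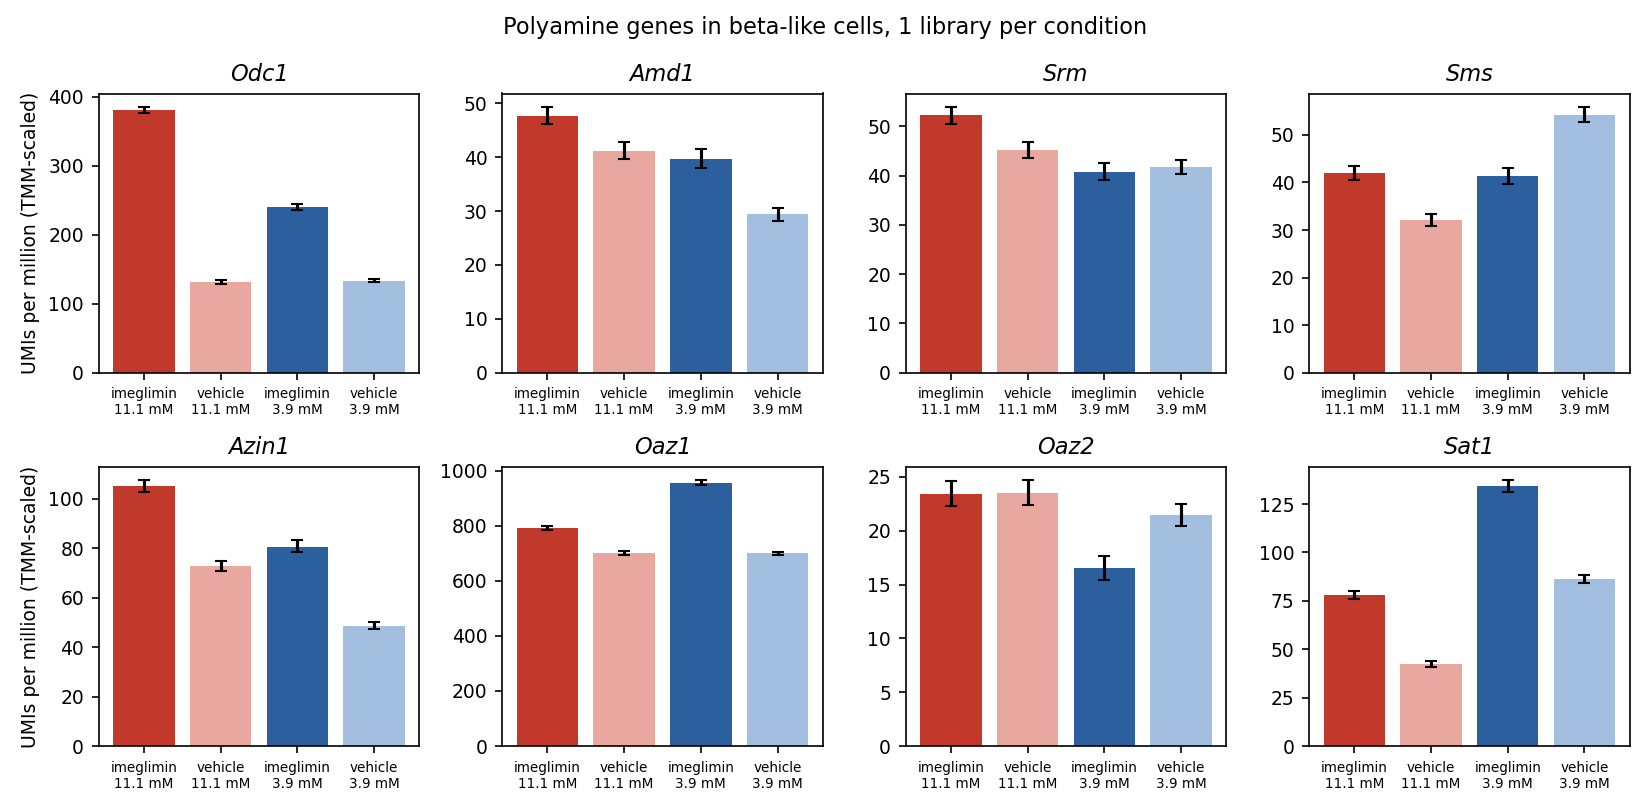
Level of each polyamine gene in beta-like cells (y axis, CPM, TMM-scaled) in the 4 libraries (x axis); bars are 1 library each and error bars are 95% counting intervals. Odc1 stood at 381 CPM with imeglimin at 11.1 mM against 132 with vehicle, while Oaz2 stood at 23.4 and 23.5 CPM there.

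Odc1, which encodes the rate-limiting enzyme, gave 381 CPM in beta-like cells with imeglimin against 132 with vehicle at 11.1 mM, and 239.5 with imeglimin against 133 with vehicle at 3.9 mM. Both imeglimin libraries were above both vehicle libraries, and the vehicle libraries were close to each other with TMM. With plain CPM the vehicle libraries were at 122 at 11.1 mM and 162 at 3.9 mM. The imeglimin to vehicle ratio was 2.89-fold at 11.1 mM (log2 1.53, counting interval 1.496 to 1.565, from 26537 and 8950 UMIs). At 3.9 mM it was 1.80-fold (log2 0.84, interval 0.81 to 0.88, from 12660 and 10325 UMIs), and 0.54 on the log2 scale with plain CPM, under the 1.5-fold limit. Over 10 alternative settings the log2 ratio ran between 1.34 and 1.57 at 11.1 mM and between 0.54 and 0.89 at 3.9 mM. Odc1 lies at chr12:17544794-17551505 on the plus strand (GRCm38, GENCODE vM21). The annotated snoRNA gene Gm22748 lies within it and is not counted separately.

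The Odc1 promoter is shown because this gene carries the largest imeglimin difference of the family in beta-like cells. The window runs from 250 bases before to 50 bases after the RefSeq start (GRCm38.p6, chr12:17544623-17544922, plus strand), and capitals mark GC boxes (GGGCGG or its reverse complement CCGCCC) and the core of the cAMP response element (TGACG on either strand). Odc1 promoter: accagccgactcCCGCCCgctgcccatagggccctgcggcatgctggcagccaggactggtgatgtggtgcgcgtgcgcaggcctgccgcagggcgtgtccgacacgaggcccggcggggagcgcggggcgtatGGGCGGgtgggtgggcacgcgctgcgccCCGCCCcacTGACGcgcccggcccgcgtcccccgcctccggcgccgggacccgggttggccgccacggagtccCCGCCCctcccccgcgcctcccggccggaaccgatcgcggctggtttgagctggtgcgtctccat

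It holds 4 GC boxes and 1 such core, which do not overlap, and 78.0% of its bases are G or C. Of 27025 RefSeq promoters of this length 35.9% held a GC box and 21% the core. The E-box CACGTG, present in 7.24% of promoters, the full cAMP response element TGACGTCA (1.88%), the TATA box TATAAA (14.2%) and the ATF4-type letters TGATGNAA (4.06%) were not found in this window. These matches describe the letters and are not binding sites.

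Odc1 was also followed as the share of single cells that held it. After each cell was thinned to 3000 UMIs, 48.7% of beta-like cells held an Odc1 UMI with imeglimin (exact 95% interval 47.4 to 50.1) against 25.4% with vehicle (24.1 to 26.6) at 11.1 mM. At 3.9 mM the shares were 49.1% with imeglimin (47.6 to 50.7) and 37.2% with vehicle (35.8 to 38.6). Without thinning they were 84.7% with imeglimin against 63.4% with vehicle at 11.1 mM, and 85.2% with imeglimin against 81.2% with vehicle at 3.9 mM. Thinning left out 72, 56, 112 and 31 beta-like cells of the imeglimin 11.1 mM, vehicle 11.1 mM, imeglimin 3.9 mM and vehicle 3.9 mM libraries. With imeglimin the share and the level order the glucose concentrations differently, and no order is read from it. No class that lacks Odc1 could be named, so the alpha-like share at the same depth is set beside it: 25.4% with imeglimin against 15.9% with vehicle at 11.1 mM, and 32.1% with imeglimin against 17.9% with vehicle at 3.9 mM.

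The spread over beta-like cells was wider at 11.1 mM glucose. The variance of thinned Odc1 UMIs was 2.88 times their mean with imeglimin and 1.79 times with vehicle at 11.1 mM, against 1.20 times with imeglimin and 1.07 times with vehicle at 3.9 mM. The 1% of cells with the most Odc1 held 11.2% of all its UMIs with imeglimin against 13.5% with vehicle at 11.1 mM, and 5.02% with imeglimin against 5.34% with vehicle at 3.9 mM. So the 11.1 mM values combine many cells of low and some cells of very high Odc1, up to 94 UMIs in 1 cell with imeglimin against 51 with vehicle.

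Odc1 levels also differed between the beta-like clusters, which were drawn on these same cells, so their levels are a description. How much of the spread lay between clusters and how much within them was not tested. Highest was the cluster led by Ero1l, Lcn2 and Bnip3, genes known to respond to low oxygen or stress. There Odc1 reached 630.3 CPM in 1534 imeglimin cells and 283 CPM in 746 vehicle cells at 11.1 mM. In the cluster that held most vehicle cells at 11.1 mM, led by the beta-cell genes Slc2a2 and Mafa, Odc1 was at 203 CPM in 397 imeglimin cells and 95.8 CPM in 3723 vehicle cells. The cluster that held most imeglimin cells, led by Cox6a2, G6pc2 and Prlr, had 286 CPM in 3053 imeglimin cells and 134 CPM in 121 vehicle cells. In the cluster led by Derl3, Depp1 and Nfkbia it was 163 CPM in 217 imeglimin cells and 79.6 CPM in 108 vehicle cells. All 4 clusters with at least 100 cells of both libraries at 11.1 mM had Odc1 intervals above vehicle with imeglimin.

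At 3.9 mM the cluster of most vehicle cells, led by 1810008I18Rik, Rnase4 and Nupr1, had 279 CPM of Odc1 in 166 imeglimin cells and 131 CPM in 4201 vehicle cells. The cluster of most imeglimin cells, led by Snhg1, Snhg15 and the stress factor gene Ddit3, had 259 CPM in 2760 imeglimin cells and 199 CPM in 139 vehicle cells. Both clusters had higher Odc1 with imeglimin. Leaving out the clusters led by Hspa1a, Rsad2 or Top2a, an alternative added after the data were seen, gave a log2 ratio of 1.57 at 11.1 mM.

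**Figure D2:**
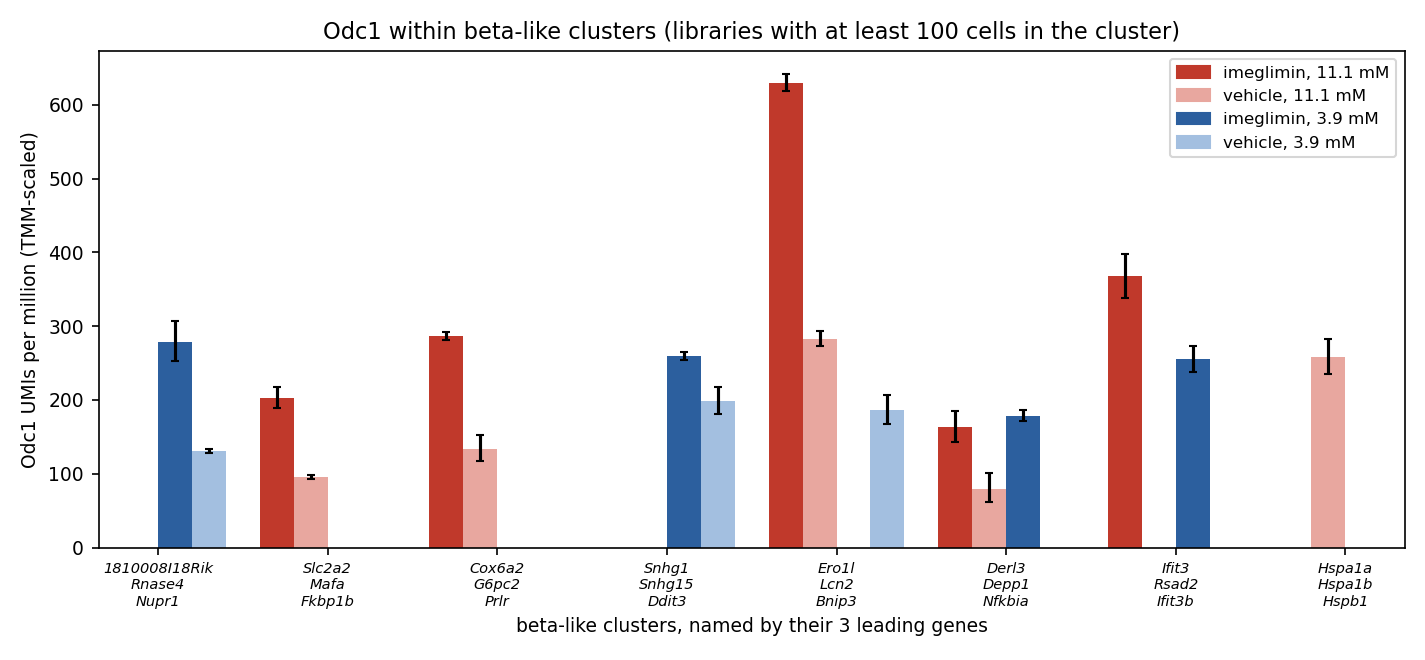
Odc1 level (y axis, CPM, TMM-scaled) within beta-like clusters named by their 3 leading genes (x axis), by library; bars are shown where a library had at least 100 cells in the cluster, and error bars are 95% counting intervals. In each cluster where both imeglimin and vehicle bars of 1 glucose concentration are drawn, the imeglimin bar is higher, as in the Ero1l cluster with 630.3 and 283 CPM at 11.1 mM.

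The enzymes after ornithine decarboxylase differed by less than 1.5-fold with imeglimin. Amd1, which makes the aminopropyl donor, was at 47.7 CPM with imeglimin against 41.2 with vehicle at 11.1 mM, and at 39.8 with imeglimin against 29.4 with vehicle at 3.9 mM. Each imeglimin library lay above the vehicle library of the same glucose, with log2 ratios of 0.21 (0.14 to 0.29) and 0.44 (0.35 to 0.52). Over 10 alternatives these ratios ran from 0.03 to 0.23 at 11.1 mM and from 0.135 to 0.48 at 3.9 mM. Amd2, a near-identical copy of Amd1 in the count table, had 13 to 42 UMIs in beta-like cells, and how reads common to both copies were counted was not tested, which leaves the Amd1 values uncertain. Amd1 lies at chr10:40287458-40302186.

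Srm, spermidine synthase, was at 52.2 CPM with imeglimin against 45.2 with vehicle at 11.1 mM, and at 40.8 with imeglimin against 41.7 with vehicle at 3.9 mM. With TMM the imeglimin library at 11.1 mM was the highest, whereas with plain CPM it had 46.96 and the vehicle library at 3.9 mM had 50.7. The intervals of the 3.9 mM libraries overlapped (log2 -0.03, -0.11 to 0.05), against 0.21 (0.14 to 0.28) at 11.1 mM. With plain CPM the 3.9 mM ratio was -0.33, and the 11.1 mM ratio ran from 0.02 to 0.235 over 10 alternatives. Srm lies at chr4:148591503-148594993.

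Sms, spermine synthase, went opposite ways at the 2 glucose concentrations. It was at 42.0 CPM with imeglimin against 32.1 with vehicle at 11.1 mM, but at 41.4 with imeglimin against 54.3 with vehicle at 3.9 mM. The vehicle libraries held the lowest and the highest level and the imeglimin libraries lay between them. The log2 ratio was 0.39 (0.31 to 0.47) at 11.1 mM and -0.39 (-0.47 to -0.32) at 3.9 mM, and neither reached 1.5-fold. Its sign was the same under all 10 alternatives at each concentration, and the difference between the concentrations was not tested. Sms lies at chrX:157443855-157492287.

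Azin1, the inhibitor of antizyme, was at 105 CPM with imeglimin against 72.8 with vehicle at 11.1 mM, and at 80.6 with imeglimin against 48.7 with vehicle at 3.9 mM. Each imeglimin library stood above its vehicle library. The ratio was 1.44-fold at 11.1 mM (log2 0.53, 0.48 to 0.58) and 1.66-fold at 3.9 mM (log2 0.73, 0.66 to 0.79), and at 3.9 mM 8 of 10 alternatives kept it above 1.5-fold. Azin1 lies at chr15:38487427-38519266, and the antisense gene Gm49077, which has its own row in the tables, overlaps its start.

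Oaz1, the main antizyme, was at 792 CPM with imeglimin against 702 with vehicle at 11.1 mM, and at 957 with imeglimin against 699.9 with vehicle at 3.9 mM. The imeglimin library at 3.9 mM was the highest, and the vehicle libraries were alike with TMM. With plain CPM the vehicle libraries were at 650 at 11.1 mM and 851 at 3.9 mM. Its log2 ratio was 0.18 (0.16 to 0.19) at 11.1 mM, where leaving hormone and mitochondrial genes out of the total took it to -0.01, and 0.45 (0.43 to 0.47) at 3.9 mM. Oaz2, the second antizyme, was at 23.4 CPM with imeglimin against 23.5 with vehicle at 11.1 mM, and at 16.5 with imeglimin against 21.4 with vehicle at 3.9 mM. Only the imeglimin library at 3.9 mM was low, and the log2 ratio was -0.01 (-0.11 to 0.10) at 11.1 mM and -0.38 (-0.50 to -0.26) at 3.9 mM. So at 3.9 mM the antizymes differed in opposite directions in beta-like cells.

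Both antizyme mRNAs carry a stop codon at which ribosomes shift frame when polyamines are high, which is how polyamines control antizyme protein. The 35 bases around it are shown because this control acts on translation and is not read by RNA counts, and capitals mark the stop codon. Sequences are from GENCODE vM21 transcripts on GRCm38, Oaz1 on chromosome 10 and Oaz2 on chromosome 9.
Oaz1: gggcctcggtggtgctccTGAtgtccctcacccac
Oaz2: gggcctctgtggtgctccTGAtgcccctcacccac
The stretches differ at 2 positions, neither of them in the stop codon. Oaz1 lies at chr10:80826656-80829290 and Oaz2 at chr9:65668001-65690300.

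Sat1, the acetyltransferase of polyamine breakdown, was at 78.1 CPM with imeglimin against 42.6 with vehicle at 11.1 mM, and at 134 with imeglimin against 86.1 with vehicle at 3.9 mM. Imeglimin was above vehicle at each glucose concentration, and both 3.9 mM libraries were above both 11.1 mM libraries. The imeglimin to vehicle ratio was 1.84-fold at 11.1 mM (log2 0.88, 0.81 to 0.94) and 1.56-fold at 3.9 mM (log2 0.64, 0.59 to 0.69). All 10 alternatives kept the first above 1.5-fold and 7 of 10 the second. At 11.1 mM the thinned share of cells with a Sat1 UMI was 16.98% with imeglimin (15.98 to 18.01) against 10.1% with vehicle (9.24 to 10.95). At 3.9 mM it was 27.4% with imeglimin (26.07 to 28.75) against 25.4% with vehicle (24.1 to 26.63), and these intervals overlapped. The 1% of cells with the most Sat1 held 10.7% of its UMIs with imeglimin against 7.44% with vehicle at 3.9 mM. At 11.1 mM they held 11.3% with imeglimin against 15.6% with vehicle. Unthinned shares were 48.3% with imeglimin against 33.1% with vehicle at 11.1 mM, and 59.4% with imeglimin against 66.4% with vehicle at 3.9 mM. The last pair went against the order of the levels.

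Sat1 was compared in the same clusters. In the Ero1l cluster it was at 137 CPM with imeglimin against 116 with vehicle at 11.1 mM, and in the Slc2a2 cluster at 39.9 with imeglimin against 23.9 with vehicle. In the Derl3 cluster Sat1 was at 77.8 CPM (64.3 to 93.2) in 217 imeglimin cells against 42.2 (29.4 to 58.7) in 108 vehicle cells. That gap was close to the one of the whole class, 78.1 against 42.6 CPM. In the Cox6a2 cluster it was at 51.3 CPM with imeglimin against 44.5 with vehicle, with overlapping intervals (49.1 to 53.5 and 35.3 to 55.3). The Ero1l and Cox6a2 clusters held 1534 and 3053 of the 5414 imeglimin cells at 11.1 mM, and their gaps were smaller than that of the whole class. At 3.9 mM the 1810008I18Rik cluster had 146 CPM of Sat1 with imeglimin against 85.1 with vehicle, and the Snhg1 cluster 165 with imeglimin against 139 with vehicle. So imeglimin was above vehicle in each of these 6 pairs, and the intervals overlapped in the Cox6a2 cluster. The pairs leave out the Derl3 cluster at 3.9 mM, which held only 52 vehicle cells. There Sat1 was at 50.5 CPM (46.7 to 54.6) in 1174 imeglimin cells, below the 86.1 CPM of the whole vehicle class at 3.9 mM.

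The Sat1 promoter is shown beside that of Odc1 because both genes were higher with imeglimin in beta-like and in alpha-like cells. It is the same window in RefSeq (GRCm38.p6, chrX:155216400-155216699, minus strand, printed along the gene), with capitals for GC boxes. Sat1 promoter: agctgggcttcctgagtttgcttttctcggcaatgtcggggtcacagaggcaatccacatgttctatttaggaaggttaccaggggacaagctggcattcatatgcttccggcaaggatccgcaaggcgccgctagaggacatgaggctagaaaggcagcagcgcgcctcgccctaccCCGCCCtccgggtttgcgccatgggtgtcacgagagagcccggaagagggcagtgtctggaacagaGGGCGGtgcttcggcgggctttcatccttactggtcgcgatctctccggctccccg

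It holds 2 GC boxes and no core TGACG, and 60.3% of its bases are G or C. RefSeq windows matched 6 of the 8 members, all but Srm and Azin1. GC boxes numbered 4 in Oaz2, 1 in Amd1 and 0 in Oaz1, whose window held a TATA box. Sat1 itself lies at chrX:155213132-155216449.

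**Figure D3:**
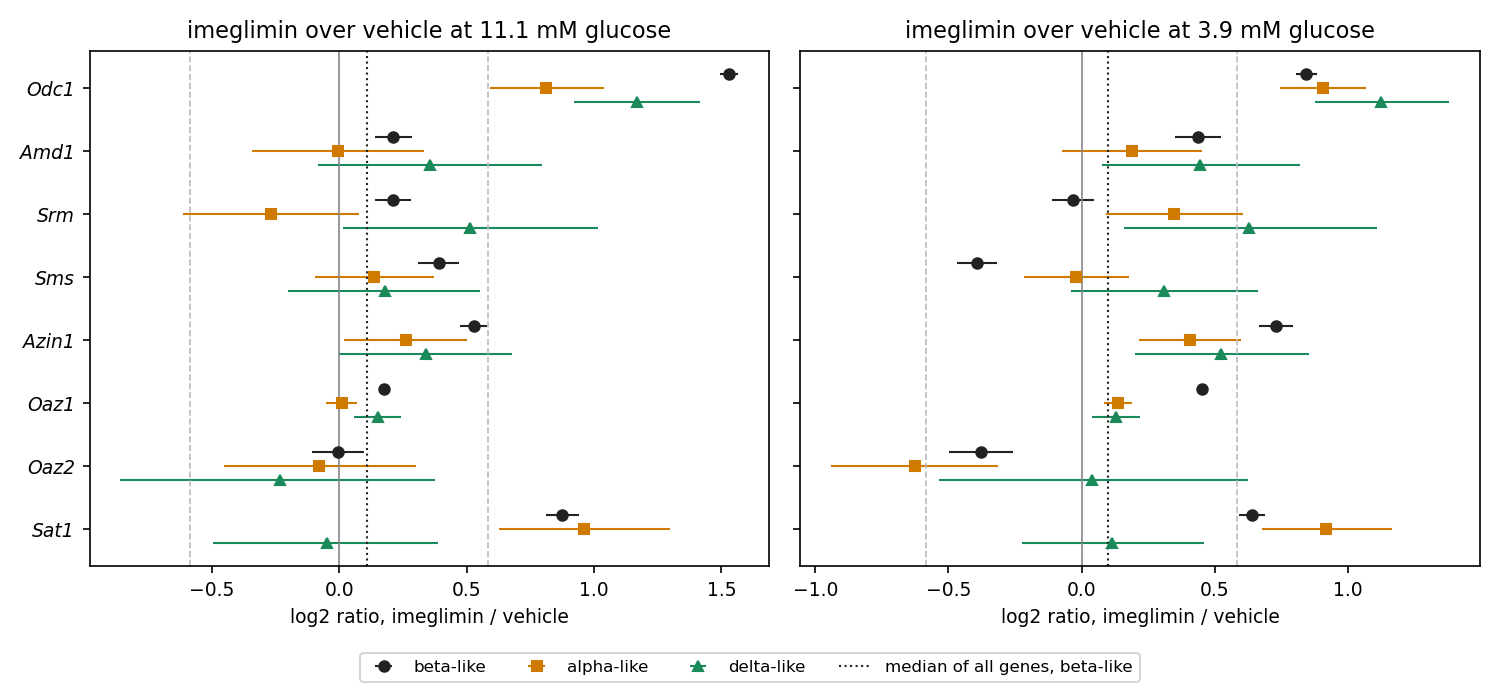
Log2 ratio of imeglimin over vehicle (x axis) for the 8 genes (rows) in beta-like, alpha-like and delta-like cells at 11.1 mM and 3.9 mM glucose; points are ratios of 2 libraries, lines 95% counting intervals, dashed lines 1.5-fold and the dotted line the beta-like median of all genes. Odc1 lies to the right of the 1.5-fold line in all 3 classes at both concentrations, and Sat1 in beta-like and alpha-like cells only.

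Among the other hormone cells, Odc1 was higher with imeglimin in each class. In alpha-like cells it was at 101.5 CPM with imeglimin against 57.8 with vehicle at 11.1 mM, and at 141 with imeglimin against 75.4 with vehicle at 3.9 mM. Both imeglimin libraries lay above both vehicle libraries, with log2 ratios of 0.81 (0.59 to 1.04) and 0.91 (0.75 to 1.07). Delta-like cells had 220.4 CPM with imeglimin against 98.1 with vehicle at 11.1 mM, and 189 with imeglimin against 86.6 with vehicle at 3.9 mM. Their log2 ratios were 1.17 (0.92 to 1.42) and 1.13 (0.88 to 1.38), which again separate imeglimin from vehicle. Pp-like cells, which make pancreatic polypeptide, had 77.4 CPM with imeglimin against 43.7 with vehicle at 11.1 mM, and 126 with imeglimin against 58.9 with vehicle at 3.9 mM, from as few as 44 UMIs. Malat1 took more of the UMIs with imeglimin here too, 5.10% against 2.62% with vehicle at 11.1 mM and 4.396% against 2.54% with vehicle at 3.9 mM in alpha-like cells. In delta-like cells it took 4.30% with imeglimin against 2.93% with vehicle at 11.1 mM and 3.99% against 3.18% with vehicle at 3.9 mM, and the part of this in the Odc1 values was not tested. As in beta-like cells, different clusters held most alpha-like cells with imeglimin and with vehicle, and most delta-like cells at 3.9 mM.

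Sat1 was not alike in these classes. In alpha-like cells it was at 48.9 CPM with imeglimin against 25.2 with vehicle at 11.1 mM, and at 62.0 with imeglimin against 32.8 with vehicle at 3.9 mM, log2 ratios of 0.96 (0.63 to 1.30) and 0.92 (0.68 to 1.16). Pp-like cells gave log2 ratios of 1.39 (0.70 to 2.12) and 1.13 (0.54 to 1.76). Delta-like cells had 46.3 CPM with imeglimin against 48.0 with vehicle at 11.1 mM, and 65.0 with imeglimin against 60.0 with vehicle at 3.9 mM. There the intervals of both log2 ratios held 0 (-0.05, -0.49 to 0.39, and 0.11, -0.23 to 0.46). Whether delta-like cells differ from the other classes in Sat1 was not tested.

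At 11.1 mM 4 members reached 50 CPM in alpha-like cells and 1 of them, Odc1, was at least 1.5-fold higher, against 6.3% of 3177 genes. At 3.9 mM 5 members reached it and 2, Odc1 and Sat1, were higher, against 12.7% of 3302 genes. Sat1 passed 50 CPM there only through the imeglimin library, so its call is given as a value and supports no count. In delta-like cells 5 members reached 50 CPM at 11.1 mM and 6 at 3.9 mM, and Odc1 alone was higher in each, against 3.92% of 3445 and 10.4% of 3553 genes. Of those members 0 were lower, beside 5.07% and 7.87% of all genes in alpha-like and 3.4% and 8.13% in delta-like cells. Below the filter, Oaz2 in alpha-like cells was at 20.4 CPM with imeglimin against 31.5 with vehicle at 3.9 mM (log2 -0.63, -0.94 to -0.31), the same direction as in beta-like cells. Srm in delta-like cells was at 43.3 CPM with imeglimin against 28.1 with vehicle at 3.9 mM, from 120 and 57 UMIs (log2 0.63, 0.16 to 1.11).

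Endothelial-like cells differed from the hormone cells in both Odc1 and Sat1. Odc1 was at 489 CPM with imeglimin against 818 with vehicle at 11.1 mM, and at 269.7 with imeglimin against 406 with vehicle at 3.9 mM. The level was lower with imeglimin at each glucose concentration, with log2 ratios of -0.74 (-0.86 to -0.62) and -0.59 (-0.75 to -0.44). Sat1 was at 302.5 CPM with imeglimin against 698 with vehicle at 11.1 mM, and at 255 with imeglimin against 1001 with vehicle at 3.9 mM. Those values give log2 ratios of -1.21 (-1.35 to -1.06) and -1.97 (-2.11 to -1.84), both lower with imeglimin. The opposite direction from beta-like cells was not tested. Of the markers of this class, Pecam1 was at 954 CPM unscaled with imeglimin against 1347 with vehicle at 11.1 mM, and at 568 against 1034 at 3.9 mM. In the same order, Cdh5 was at 1223 against 1149 and 895.5 against 1124, and Kdr at 1403 against 1218 and 1812 against 1849. The part of the class make-up in the Odc1 and Sat1 values was not tested.

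Depth differed between these endothelial-like cells, with a median of 3199.5 UMIs in 424 imeglimin cells and 6088.5 in 224 vehicle cells at 11.1 mM, and 4102 in 414 imeglimin cells and 6680 in 171 vehicle cells at 3.9 mM. At 3000 UMIs per cell the mean was 1.66 Odc1 UMIs with imeglimin against 3.14 with vehicle at 11.1 mM, and 0.871 with imeglimin against 1.49 with vehicle at 3.9 mM. Sat1 averaged 1.04 UMIs with imeglimin against 2.44 with vehicle at 11.1 mM, and 0.819 with imeglimin against 3.52 with vehicle at 3.9 mM. The order was the same at equal depth. Malat1 took 2.19% to 3.56% of UMIs with imeglimin and 1.09% to 1.95% with vehicle in endothelial-, macrophage- and stromal-like cells, and its part in these values was not tested. Thinning left out 202 imeglimin and 59 vehicle cells at 11.1 mM, and 143 imeglimin and 23 vehicle cells at 3.9 mM.

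In macrophage-like cells Sat1 was at 433 CPM with imeglimin against 578 with vehicle at 11.1 mM, and at 520.1 with imeglimin against 963 with vehicle at 3.9 mM. It was lower with imeglimin at both, with log2 ratios of -0.42 (-0.60 to -0.23) and -0.89 (-1.04 to -0.74). Markers of the class moved beside it: C1qa was at 2047 CPM with imeglimin against 2610 with vehicle at 11.1 mM, and at 1192 with imeglimin against 3187 with vehicle at 3.9 mM. Adgre1 was found in 32.9% of cells with imeglimin against 66.0% with vehicle at 3.9 mM, while Cd68 was at 699.6 CPM with imeglimin against 679 with vehicle, and the part of this in the Sat1 values was not tested. Odc1 was at 203.5 CPM with imeglimin against 73.2 with vehicle at 11.1 mM, and at 160.0 with imeglimin against 99.6 with vehicle at 3.9 mM. Stromal-like cells had 370.5 CPM of Odc1 with imeglimin against 168 with vehicle at 11.1 mM, and 277 with imeglimin against 185 with vehicle at 3.9 mM. Srm in stromal-like cells was at 127 CPM with imeglimin against 201 with vehicle at 11.1 mM, and at 129 with imeglimin against 276 with vehicle at 3.9 mM, log2 ratios of -0.66 (-1.02 to -0.30) and -1.10 (-1.47 to -0.74). The markers of this class were sparse and also lower with imeglimin. Col1a1 was at 278 CPM with imeglimin against 1055 with vehicle at 11.1 mM, and at 189 with imeglimin against 1245 with vehicle at 3.9 mM. It was found in 13.9% to 17.6% of cells with imeglimin and in 25.9% to 43.6% with vehicle, and the part of the class make-up in its Srm and Odc1 values was not tested. Srm was higher in stromal-like cells than in any other class, between 130 and 278 CPM unscaled over 4 libraries against 40.2 to 50.7 in beta-like cells, the next class by median.

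Insulin RNA was present in these classes. The Ins2 level of endothelial-, macrophage- and stromal-like sums was between 21.6% and 38.2% of the beta-like level, against 1.02% to 5.63% in alpha-, delta- and pp-like sums. An alternative added after the data were seen kept only cells with under 2% of UMIs from Ins1 and Ins2. In it the endothelial-like log2 ratios were -0.95 (-1.09 to -0.82) and -0.78 (-0.97 to -0.60) for Odc1 and -1.21 and -2.15 for Sat1, at least as far below 0. Stromal-like Odc1 stood at 0.47 (0.12 to 0.83) at 11.1 mM in place of 1.14, and at 0.67 in place of 0.58 at 3.9 mM. Macrophage-like Odc1 stood at 1.07 (0.58 to 1.58) in place of 1.47 at 11.1 mM, and at 0.54 at 3.9 mM with an interval that held 0 (-0.05 to 1.11). The macrophage-like ratio of Sat1 and the stromal-like ratio of Srm moved little, to -0.87 and -1.13 at 3.9 mM.

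**Figure D4:**
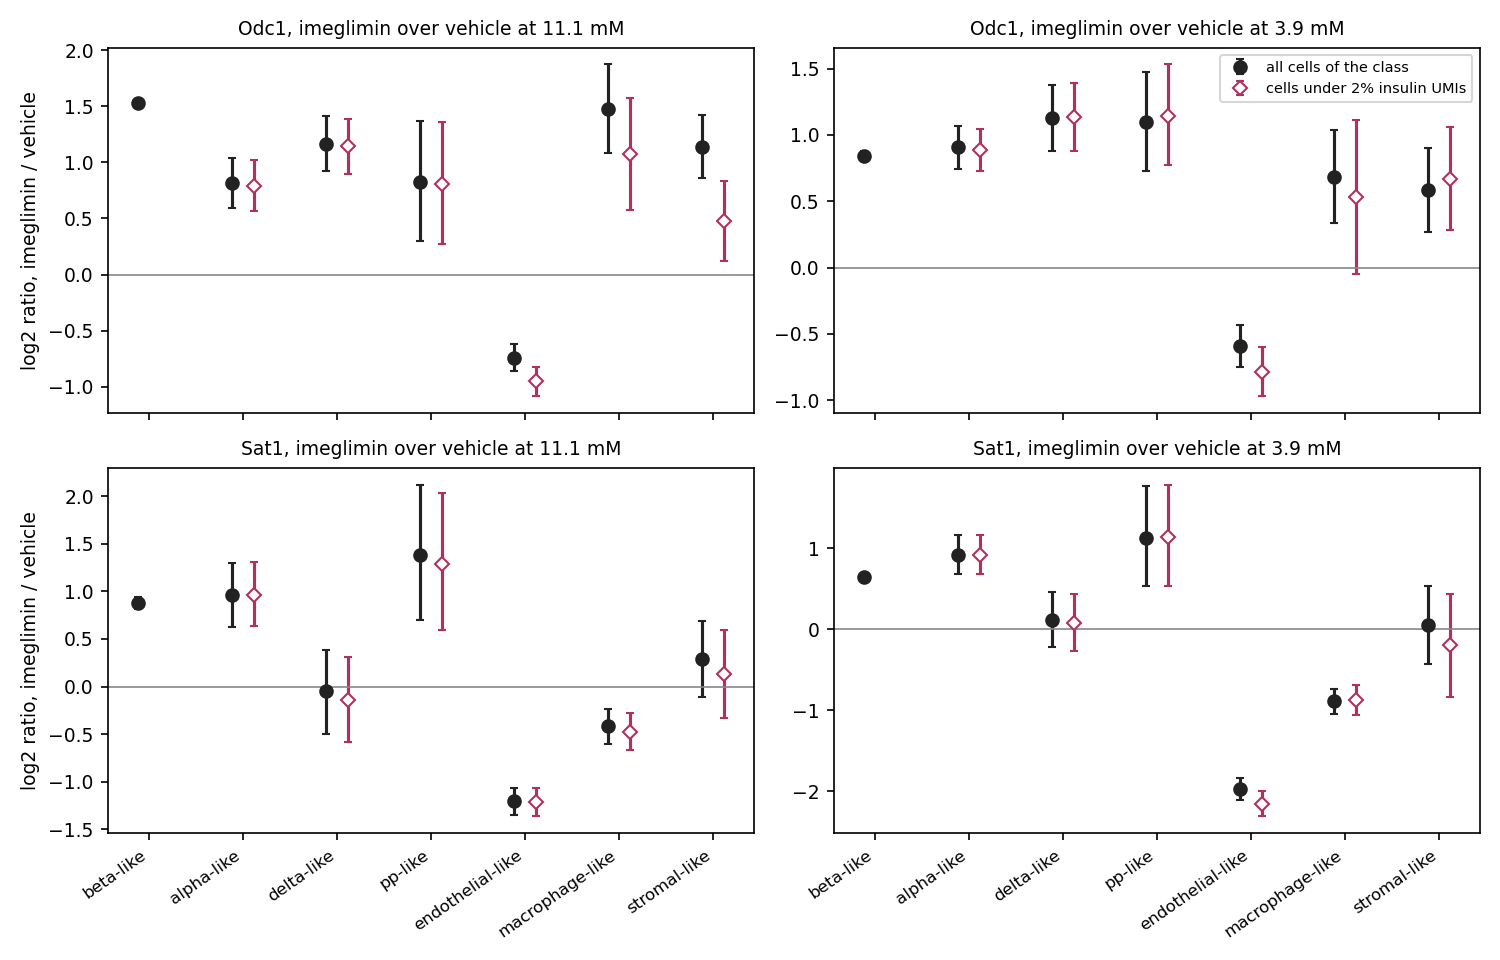
Log2 ratio of imeglimin over vehicle (y axis) for Odc1 (top) and Sat1 (bottom) in 7 cell classes (x axis) at 11.1 mM (left) and 3.9 mM (right); filled points use all cells of a class, open points cells with under 2% insulin UMIs, and lines are 95% counting intervals. Endothelial-like cells lie below 0 in all 4 panels, at -0.74 and -0.59 for Odc1 and -1.21 and -1.97 for Sat1.

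Over the 4 libraries, unscaled Odc1 levels ran from 259.7 to 826 CPM in endothelial-like, 159 to 379 in stromal-like, 122 to 342 in beta-like, 92.2 to 207 in delta-like, 73.1 to 198 in macrophage-like, 61.1 to 130.0 in alpha-like and 42.6 to 126.5 CPM in pp-like cells, in the order of their medians. Each range overlapped that of its neighbour, so the order of neighbouring classes is not set apart from the spread. For Sat1 the ranges of macrophage-like (421 to 995 CPM) and endothelial-like cells (245 to 1063 CPM) lay above those of the other classes, the next being stromal-like cells with 99.7 to 138 CPM.

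Between glucose concentrations the share of members past 1.5-fold was near that of all genes, and the values are given as a description. Of 6048 genes compared in beta-like cells with imeglimin, 15.1% were at least 1.5-fold higher and 23.7% lower at 11.1 than at 3.9 mM, and of 5903 genes with vehicle 9.74% were higher and 20.1% lower. With plain CPM those with vehicle were 230 genes higher and 3061 lower, in place of 575 and 1188, and without hormone and mitochondrial genes 1189 and 866. With imeglimin they were 635 and 1846 with plain CPM and 1526 and 1145 without those genes, in place of 913 and 1436. The glucose ratios share their libraries with the imeglimin ratios and are not independent of them.

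With imeglimin 1 member was at least 1.5-fold higher at 11.1 mM, Odc1, and 1 lower, Sat1. With vehicle 0 members were higher and 2 lower, Sat1 and Sms. For Odc1 the log2 ratio of 11.1 over 3.9 mM was 0.67 (0.64 to 0.70) with imeglimin and -0.02 (-0.06 to 0.02) with vehicle. The vehicle value was -0.41 with plain CPM and 0.17 without hormone and mitochondrial genes, so its direction depends on the scaling. Sat1 was lower at 11.1 mM with imeglimin (-0.78, -0.83 to -0.73) and with vehicle (-1.02, -1.08 to -0.95). Sms was at -0.76 (-0.83 to -0.68) with vehicle and at 0.02 (-0.06 to 0.10) with imeglimin. Azin1 was at 0.38 (0.33 to 0.44) with imeglimin and 0.58 (0.52 to 0.64) with vehicle, and Amd1 at 0.26 (0.18 to 0.34) and 0.49 (0.41 to 0.57). Oaz2 was at 0.50 (0.39 to 0.63) with imeglimin and 0.13 (0.03 to 0.23) with vehicle. Srm was at 0.36 (0.28 to 0.44) and 0.12 (0.04 to 0.19), and Oaz1 at -0.27 (-0.29 to -0.25) and 0.00 (-0.01 to 0.02), and with vehicle the signs of Srm, Oaz1 and Oaz2 turned in at least 1 alternative.

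In alpha-like cells Odc1 was lower at 11.1 mM with either treatment, with log2 ratios of 11.1 over 3.9 mM of -0.48 (-0.63 to -0.32) with imeglimin and -0.38 (-0.61 to -0.16) with vehicle. Few genes were 1.5-fold apart there, with 2.17% higher and 3.43% lower with imeglimin and 0.886% higher and 0.361% lower with vehicle, and 0 of the 5 and 4 members that reached 50 CPM. Endothelial-like cells had more Odc1 at 11.1 mM, with log2 ratios of 0.86 (0.72 to 1.00) with imeglimin and 1.01 (0.88 to 1.14) with vehicle. In delta-like cells the Odc1 ratios were 0.22 (0.02 to 0.42) with imeglimin and 0.18 (-0.11 to 0.47) with vehicle, and 0 of 6 and 5 members passing the filter were apart, beside 5.97% higher and 5.09% lower and 2.04% higher and 1.12% lower of all genes.

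A wider list of 34 genes covered the supply of ornithine and S-adenosylmethionine, breakdown, transport, the recycling of methylthioadenosine left over from spermidine and spermine synthesis, and hypusine formation. With imeglimin against vehicle 8 of the 34 reached 20 CPM at 11.1 mM, 1 of them higher and 0 lower by 1.5-fold, and 11 reached it at 3.9 mM, 1 higher and 1 lower. Over all genes 5.63% were higher and 4.31% lower at 11.1 mM and 12.2% and 10.4% at 3.9 mM, so these counts are near the background. Their median log2 ratios were 0.16 and -0.03, beside 0.11 and 0.10 over all genes.

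The gene above the limit at 11.1 mM was Mat2a, whose enzyme makes S-adenosylmethionine. It was at 144.5 CPM with imeglimin against 78.97 with vehicle at 11.1 mM, and at 53.6 with imeglimin against 68.9 with vehicle at 3.9 mM, so the libraries of imeglimin held the highest and the lowest level. Its log2 ratio was 0.87 (0.82 to 0.92) at 11.1 mM and -0.36 (-0.43 to -0.30) at 3.9 mM. Slc3a2, the heavy chain of several amino acid transporters that is also linked to polyamine export, was at 234 CPM with imeglimin against 156 with vehicle at 11.1 mM, and at 613 with imeglimin against 331 with vehicle at 3.9 mM. Imeglimin was above vehicle at both, with log2 ratios of 0.58 (0.55 to 0.62) and 0.89 (0.87 to 0.92), and only the second is past 1.5-fold. Adi1, an enzyme of methylthioadenosine recycling, was at 60.5 CPM with imeglimin against 105 with vehicle at 3.9 mM (log2 -0.79, -0.85 to -0.73), and at 66.4 with imeglimin against 58.1 with vehicle at 11.1 mM.

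Eif5a, the protein that receives hypusine from spermidine, was at 213 CPM with imeglimin against 206 with vehicle at 11.1 mM and at 249 with imeglimin against 213 with vehicle at 3.9 mM. Dhps and Dohh, which form hypusine, had log2 ratios of imeglimin over vehicle of 0.20 and 0.12 at 11.1 mM and -0.17 and -0.15 at 3.9 mM. The polyamine transporter gene Atp13a3 was at 0.13 and 0.39, Atp13a2 at 0.21 and -0.51, Mtap of methylthioadenosine recycling at 0.33 and 0.25, Apip at 0.07 and -0.03, and Mat2b, the regulatory partner of Mat2a, at -0.07 and 0.38, at 11.1 mM and 3.9 mM in turn. Atp13a2, Mtap and Apip were under 20 CPM at 11.1 mM. Dhps, Dohh, Atp13a2, Mat2a, Mat2b and Adi1 had opposite signs at the concentrations, and Dohh only as long as hormone and mitochondrial genes stay in the total, whose removal moves the 11.1 mM ratios by -0.19 and leaves Dhps, Adi1 and Atp13a2 close to 0 there. The Apip intervals held 0 at both.

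Between glucose concentrations the list median was below that of all genes. With imeglimin 10 members were compared, 1 higher and 4 lower by 1.5-fold, with a median of -0.39 beside -0.14 over all genes, and with vehicle 11 were compared, 0 higher and 5 lower, with a median of -0.53 beside -0.16. Of all genes 15.1% were higher and 23.7% lower with imeglimin, and 9.74% and 20.1% with vehicle. Apip and Mtap in both comparisons, and Atp13a2 with vehicle, passed 20 CPM only at 3.9 mM. Apip was called lower in both comparisons and Mtap with vehicle only. These calls, and the list medians that hold such genes, are therefore no support for the list. Mat2a was at 1.43 (1.37 to 1.49) with imeglimin and 0.20 (0.14 to 0.25) with vehicle. Slc3a2 was at -1.39 with imeglimin and -1.08 with vehicle, Dhps at -0.71 and -1.08, and Apip at -1.01 and -1.12. Smox and Myc stayed below 20 CPM in beta-like cells. Smox, spermine oxidase, was at 13.6 CPM with imeglimin against 6.404 with vehicle at 11.1 mM. At 3.9 mM it was at 9.88 with imeglimin against 6.499 with vehicle, in the same order as Odc1. The other breakdown genes of the list, also below 20 CPM, went differently. Log2 ratios of imeglimin over vehicle at 11.1 and 3.9 mM were -0.24 and -1.16 for Sat2 and 0.38 and -0.20 for Paox. Myc, whose protein is known to act on the Odc1 gene, was at 5.16 CPM with imeglimin against 2.44 with vehicle at 11.1 mM and at 19.3 with imeglimin against 13.9 with vehicle at 3.9 mM. Another class held up to 19.99 times the beta-like level of Smox and 21.4 times that of Myc, and the part of RNA from such cells was not tested.

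Genes with a pattern close to a member were ranked over 12 points, 3 hormone cell classes in 4 libraries, by the root-mean-square difference of log2(CPM + 1) centred within each class, among 5557 genes. These points share libraries and depth, and the ranking is a description. Closest to Odc1 were Uqcrq, a subunit of respiratory complex III (difference 0.22, where Odc1 itself varied by 0.57), Rps2, a ribosomal protein (0.24), Id2, a transcription regulator (0.25), Cmc2 (0.27) and Sgcb (0.27). In beta-like cells Uqcrq stood at 621 CPM with imeglimin against 309 with vehicle at 11.1 mM. At 3.9 mM it stood at 395 with imeglimin against 386 with vehicle, nearly level, unlike Odc1. Rps2 stood at 2405 CPM in beta-like cells with imeglimin against 1438 with vehicle at 11.1 mM. At 3.9 mM Rps2 was at 2125 with imeglimin against 1284 with vehicle. Among the genes closest to Azin1 were Cycs, which encodes cytochrome c (0.10), and Ppa1, a pyrophosphatase (0.11). Closest to Sat1 were Zfp36l2, an mRNA decay factor (0.11), Rragd, a GTPase that signals amino acids (0.14), and March5, a mitochondrial ubiquitin ligase (0.16). Zfp36l2 stood at 65.2 CPM with imeglimin against 38.7 with vehicle at 11.1 mM and at 120.2 with imeglimin against 70.4 with vehicle at 3.9 mM, in the order of Sat1.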

How the data were processed

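Islet cells were profiled by droplet 3' single-cell RNA sequencing in 4 libraries, 1 per condition. The authors deposited UMI counts per gene and cell barcode, made with Cell Ranger 6.0.2 on mm10 per the submitters' processing notes. Barcodes under 1000 UMIs or 500 genes, or over 20% mitochondrial UMIs, were left out. Cells were clustered over all libraries on 2000 variable genes, 30 principal components and 15 neighbours (scanpy 1.11.5, leidenalg 0.10.2, resolution 1). Clusters were named from marker lists, with a score margin of 0.65 set after the data were seen. Clusters that were mixed, held few UMIs or were led by markers of another class stayed unnamed and entered no class sum. They held 11.8% of kept cells with imeglimin against 12.4% with vehicle at 11.1 mM. At 3.9 mM they held 21.7% with imeglimin against 15.4% with vehicle. The part of these cells in the results was not tested. The doublet caller marked 0 cells, which means it did not work, and in the main setting no cell was left out by its doublet score.

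UMIs were summed per class and library and scaled by TMM over the 4 sums (edgeR 4.0.16, R 4.3.3). Intervals are exact at 95% and cover counting error only. With 1 library per condition there is no replicate check, and no p-value is given. Calls by size used 1.5-fold, with at least 20 CPM in beta-like and 50 CPM in alpha-like and delta-like cells. Of the gene IDs 99.6% matched GENCODE vM21. Members, gene lists and marker lists were chosen with earlier results of these data known. Named genes are the 8 members, the wider list's genes and the genes closest to Odc1, Azin1 and Sat1. Of these, 1 gene is not reported here. Alternatives were other scalings, cell filters, clusterings and gene filters. The ratio script was tested on simulated data.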

Additional observations from a re-analysis of the deposited data

Results flagged for a closer look

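Several ratios lay on opposite sides of 0 in different cells or at different glucose concentrations, each with a counting interval off 0, and none of these differences was tested. The log2 ratio of imeglimin over vehicle for Odc1 in endothelial-like cells was -0.741 at 11.1 mM and -0.591 at 3.9 mM, against 1.53 and 0.84 in beta-like cells. For Sat1 in endothelial-like cells it was -1.21 at 11.1 mM and -1.97 at 3.9 mM, against 0.88 and 0.64 in beta-like cells. Sat1 in macrophage-like cells stood at -0.889 at 3.9 mM, where the beta-like value was 0.64. The ratio of 11.1 over 3.9 mM with imeglimin for Odc1 was -0.699 in pp-like cells and 0.67 in beta-like cells. Sms in beta-like cells had an imeglimin over vehicle ratio of 0.389 at 11.1 mM and -0.39 at 3.9 mM.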

How the results depend on the processing

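The beta-like log2 ratio of imeglimin over vehicle for Odc1 at 11.1 mM was 1.487 with plain CPM, 1.345 without hormone and mitochondrial genes, 1.408 as a mean of per-cell CPM, 1.494 in thinned cells and 1.572 without the clusters led by Hspa1a, Rsad2 or Top2a. At 3.9 mM it was 0.5429 with plain CPM, 0.6941 without hormone and mitochondrial genes, 0.8856 with median-of-ratios size factors and 0.8039 per cell. The Odc1 ratio of 11.1 over 3.9 mM with imeglimin was 0.5335 (plain), 0.8181 (without those genes), 0.7329 (per cell) and 0.614 (thinned), and with vehicle -0.4105 (plain), 0.1677 (without those genes), 0.1074 (per cell) and 0.02424 (median of ratios). Plain CPM put Odc1 at 342.2 with imeglimin against 122.1 with vehicle at 11.1 mM, and at 162.3 with vehicle at 3.9 mM. Thinning put the share of cells with an Odc1 UMI at 48.73% with imeglimin against 25.36% with vehicle at 11.1 mM, and at 49.14% against 37.21% at 3.9 mM.

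Genes at least 1.5-fold higher with imeglimin at 11.1 mM numbered 150 without hormone and mitochondrial genes, 176 per cell, 583 at 5 CPM and 3308 at 1 UMI, and lower 647 without hormone and mitochondrial genes, 548 at 5 CPM and 4211 at 1 UMI. At 3.9 mM 216 (plain), 440 (without hormone and mitochondrial genes) and 4159 (1 UMI) were higher and 1517 (plain), 1193 (without those genes), 1346 (5 CPM) and 4670 (1 UMI) lower. For 11.1 over 3.9 mM with imeglimin 1526 (without those genes), 1625 (5 CPM) and 5453 (1 UMI) were higher and 5207 (1 UMI) lower. With vehicle 230 (plain), 1189 (without those genes), 996 (5 CPM) and 5057 (1 UMI) were higher and 3061 (plain), 1816 (5 CPM) and 4550 (1 UMI) lower. More genes enter at lower filters.

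The wider list's median for imeglimin over vehicle was -0.02658 without hormone and mitochondrial genes, 0.04829 per cell and 0.08463 thinned at 11.1 mM, and -0.3335 (plain), -0.1823 (without those genes), -0.1061 (per cell) and 0.05385 (thinned) at 3.9 mM. For 11.1 over 3.9 mM it was -0.5245, -0.2399 and -0.2287 with imeglimin and -0.9256, -0.3474 and -0.3962 with vehicle, in the order plain, without those genes and per cell. Beyond the scalings' own shifts the cause was not tested.

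Of 9 beta-like member ratios past 1.5-fold, 9 had the same sign and 3 stayed past it under all alternatives, and of 23 others 16 had the same sign. In alpha-like cells 6 of 6 had the same sign and 4 stayed past it, and in delta-like cells 3 of 3 and 2. No paired analysis was possible because the conditions compared share fewer than 2 replicate numbers, and with 1 library each none could be left out. A fit that pools both glucose concentrations was not made. The alternatives without the named clusters and with low-insulin cells were chosen after seeing the data. Some values rest on few UMIs, such as 7 for Oaz2 in macrophage-like cells with imeglimin at 3.9 mM.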
